A study of Homo sapiens with 2 samples.

Results

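Cells switch on many genes when they receive interferon, and a set of 45 of these interferon-stimulated genes was chosen here. All 45 were found by their symbol among the 60619 genes of the deposited tables. They were followed in RNA sequencing of 2 libraries of HBEC-3KT, an immortalized line of human bronchial epithelium. The cells of one library had been transduced with a pLenti6 lentivirus that carries human CBS, which encodes cystathionine beta-synthase, an enzyme of sulfur amino acid metabolism, and those of the other with the empty pLenti6 vector (EV). Virus was left on both cultures for 4 to 8 hours, the cells were then put under blasticidin (10 µg/mL), and growth on gelatin-coated plastic lasted 4 to 5 days. No culture without virus was analysed here, so both libraries come from cells that had met a lentivirus and an antibiotic. Which promoter drives CBS in the vector is not given in these sources. The design asks how CBS expression bears on Polycomb repressive complex 2, a complex that silences genes. Each group held 1 library, so no difference below has a replicate check and none was tested between the conditions.

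Interferons are secreted alarm signals against viruses. Type I and type III interferons bind receptors that activate the kinases JAK1 and TYK2, which phosphorylate STAT proteins, STAT2 among them. With IRF9 these form a complex called ISGF3, which binds a DNA element named the interferon-stimulated response element and turns on many genes whose products degrade, sequester or sense viral RNA, block virus entry or release, or damp the response. Airway epithelium is among the first tissues that respiratory viruses reach, and its cells keep many of these genes at a low level without added interferon.

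The libraries held 20785957 estimated counts with CBS and 20433062 with EV. CBS itself had 172 CPM (3669 counts) with CBS against 14.1 CPM (280 counts) with EV, and CBSL, a near-identical copy in the assembly, had 4378 counts with CBS and 343 with EV, so both were higher in the library labelled as carrying CBS. KRT5, TP63 and ITGA6, markers of airway basal cells, stood at 1844, 89.3 and 185 TPM with CBS and at 2620, 88.2 and 190 TPM with EV. KRT14 and KRT17, also basal, were at least 2-fold lower, at 918 and 14243 counts with CBS and 3831 and 37362 counts with EV. Across the basal list, 5 of 8 measured markers had a counting interval below a ratio of 1, KRT14 and KRT17 being 2 of them, and NGFR and EPCAM had one above, and the whole list summed to 4831 CPM with CBS and 8119 CPM with EV. PTPRC and LYZ, markers of leukocytes, and CLEC4C and LILRA4, markers of plasmacytoid dendritic cells, had no count in either library. Others of this list had a few counts. IL3RA had 14 counts with CBS and 3 with EV, with a counting interval above a ratio of 1. ITGAM had 3 counts with CBS and 15 with EV, with an interval below it. The 12 markers of leukocytes and dendritic cells summed to 40.4 CPM with CBS against 124.6 with EV, of which CD68 and CD14 made up nearly all. CD68, a lysosomal protein that epithelial cells also make, had 619 counts with CBS and 2259 with EV. Of the fibroblast markers, COL1A2, COL3A1, DCN and LUM had no count. The list summed to 6.24 CPM with CBS and 13.8 CPM with EV, nearly all of it COL1A1. That gene had 132 counts with CBS and 270 with EV, at 3.18 TPM with CBS and 3.88 TPM with EV. Whether these differences have a part in those of the interferon-stimulated genes was not tested.

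Each fold below divides the CBS level by the EV level after TMM scaling, with a prior count of 5 in the log2 fold, which draws genes with few counts toward 0. The bracketed range is an exact 95% interval of the count ratio, made without the prior count, and covers counting error between these 2 libraries only. CPM is the count scaled to a common library size with TMM, and TPM, the authors' value per transcript length, is the scale on which levels of different genes are compared. The words called higher or called lower are kept for a gene at least 2-fold apart whose interval also left out a ratio of 1. In bulk RNA a lower level of a transcript in each cell and fewer cells that make it cannot be told apart.

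The 45 genes did not differ in a common direction. IFIT transcripts, HERC5, HERC6 and USP18 were about 2-fold higher in the CBS library, and SAMD9, IRF9, ISG20 and GBP2 were at least 2-fold lower. Of 36 genes above the filter on low counts (10 or more counts in a library and 1 CPM or more on average), 2 were called higher, IFIT1 and IFIT2, against a share of 1.41% over all 13304 genes above it. The 4 called lower were GBP2, SAMD9, IRF9 and ISG20, against a share of 5.28% over all genes. On the interval alone, 15 of the 36 lay above a ratio of 1 and 14 below it, where the shares over all genes were 31.6% above and 31.1% below. The median log2 fold was 0.15 over these 36 and 0.16 over the 43 with a count, and 0.00 over all genes above the filter. Their spread was wider than that of the table, with quartiles of the log2 fold at -0.45 and 0.53 in the set and -0.31 and 0.27 over all genes. The median absolute log2 fold was 0.52 in the set and 0.29 over all genes. In the 27 genes of the set with at least 100 counts in a library, it was 0.50. Genes with few counts scatter more from counting error, and the set was not compared with genes of matched counts. Summed over the 45, they came to 780 CPM with CBS against 840 with EV, of which IFITM3 alone held 215 CPM with CBS and 279 CPM with EV. Without IFITM3 the sums were 565 CPM with CBS and 560 CPM with EV.

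**Figure D1:**
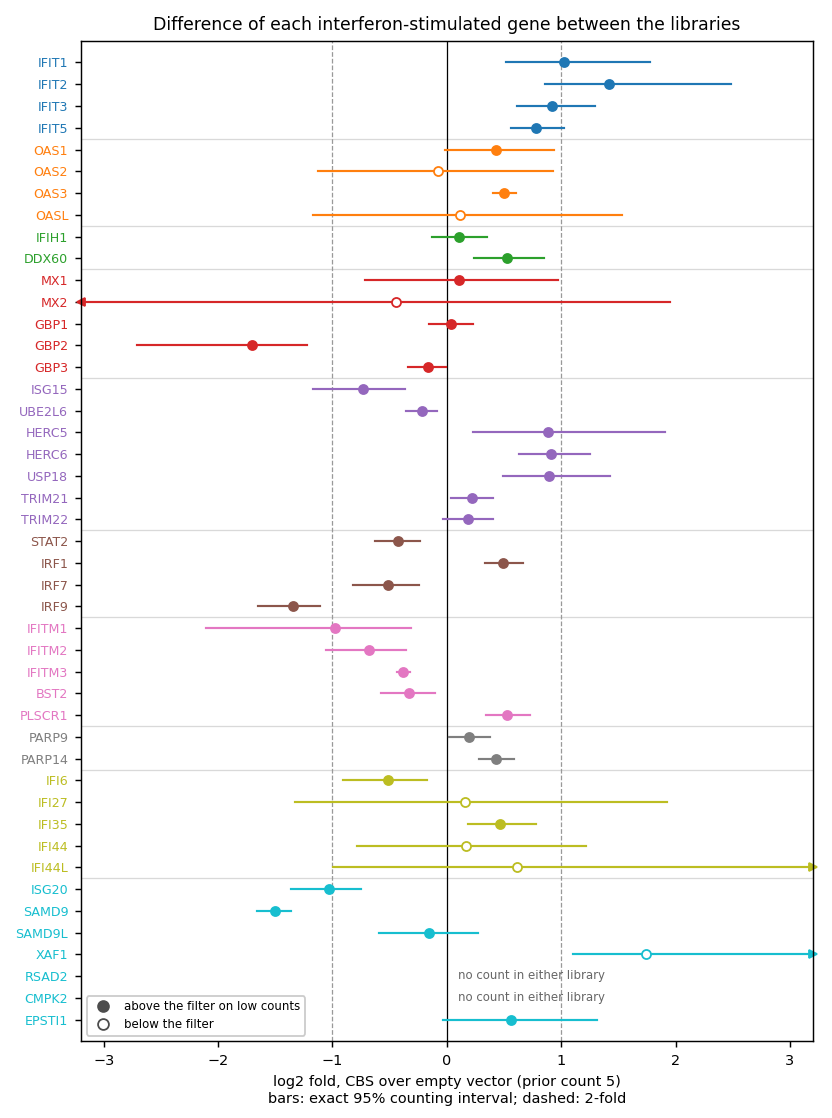
Log2 fold of each gene, CBS over empty vector, by role from top to bottom, with its exact 95% counting interval as a bar and the 2-fold lines dashed. All 4 IFIT genes lie to the right of 0 with intervals above a ratio of 1, while SAMD9, IRF9, ISG20 and GBP2 lie to the left of the lower dashed line, and open points (genes below the filter) have wide intervals.

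**Figure D2:**
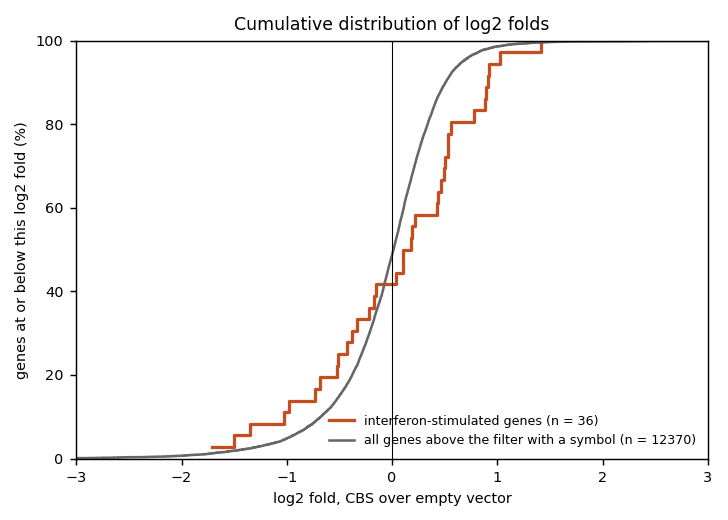
Cumulative share of genes (vertical axis, percent) at or below each log2 fold (horizontal axis) for the 36 interferon-stimulated genes above the filter and for the genes of the whole table above it that have a symbol. The line of the 36 lies above that of the table at the low end and below it at the high end, and the lines cross near a log2 fold of 0.

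Promoter windows were read from RefSeq (GRCh38.p14), from 250 bases before to 50 after a gene's start, for 36 of the 45 genes. The others were IFIT2, OAS2, OASL, MX2, GBP2, USP18, TRIM22, IRF7 and IFITM2. Windows are printed for the 3 highest and the 3 lowest log2 folds among genes with at least 100 counts in a library that have a window, because these carry the opposite directions of the set. Capitals mark matches to GAAA, 2 bases of any kind and GAAA, or the reverse complement of this run, the core of the interferon-stimulated response element. The windows of IFIT3 (chr10:89327747-89328046, plus strand), HERC6 (chr4:88378602-88378901, plus strand) and IFIT5 (chr10:89414318-89414617, plus strand) belong to genes that were higher with CBS. Those of SAMD9 (chr7:93117930-93118229, minus strand), IRF9 (chr14:24161015-24161314, plus strand) and ISG20 (chr15:88638766-88639065, plus strand) belong to genes that were lower. They read, 5′ to 3′:
IFIT3: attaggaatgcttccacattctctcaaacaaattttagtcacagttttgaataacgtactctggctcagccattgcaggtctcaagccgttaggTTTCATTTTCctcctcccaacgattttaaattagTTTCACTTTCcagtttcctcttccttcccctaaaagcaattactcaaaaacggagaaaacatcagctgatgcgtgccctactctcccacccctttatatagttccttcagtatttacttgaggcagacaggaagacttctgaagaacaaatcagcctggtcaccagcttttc
HERC6: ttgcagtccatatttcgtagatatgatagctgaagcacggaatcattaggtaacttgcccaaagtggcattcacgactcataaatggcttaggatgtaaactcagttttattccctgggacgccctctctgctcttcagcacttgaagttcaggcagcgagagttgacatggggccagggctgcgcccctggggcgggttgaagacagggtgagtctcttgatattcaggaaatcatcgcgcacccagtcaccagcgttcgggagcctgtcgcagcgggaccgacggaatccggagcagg
IFIT5: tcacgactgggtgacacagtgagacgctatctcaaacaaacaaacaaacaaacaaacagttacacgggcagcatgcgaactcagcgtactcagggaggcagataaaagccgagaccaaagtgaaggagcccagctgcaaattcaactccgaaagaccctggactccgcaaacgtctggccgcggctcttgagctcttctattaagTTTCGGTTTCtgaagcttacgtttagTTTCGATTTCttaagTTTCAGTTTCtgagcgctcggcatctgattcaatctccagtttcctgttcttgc
SAMD9: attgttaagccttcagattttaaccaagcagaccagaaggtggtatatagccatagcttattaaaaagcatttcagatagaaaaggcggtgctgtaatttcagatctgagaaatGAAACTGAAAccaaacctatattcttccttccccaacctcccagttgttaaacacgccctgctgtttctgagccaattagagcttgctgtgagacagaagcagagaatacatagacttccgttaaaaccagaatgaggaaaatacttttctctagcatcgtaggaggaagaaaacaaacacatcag
IRF9: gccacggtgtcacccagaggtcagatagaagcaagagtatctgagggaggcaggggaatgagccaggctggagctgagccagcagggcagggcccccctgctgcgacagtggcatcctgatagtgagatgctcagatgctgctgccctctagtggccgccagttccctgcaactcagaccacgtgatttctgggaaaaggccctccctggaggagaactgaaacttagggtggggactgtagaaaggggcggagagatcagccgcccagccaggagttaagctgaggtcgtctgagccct
ISG20: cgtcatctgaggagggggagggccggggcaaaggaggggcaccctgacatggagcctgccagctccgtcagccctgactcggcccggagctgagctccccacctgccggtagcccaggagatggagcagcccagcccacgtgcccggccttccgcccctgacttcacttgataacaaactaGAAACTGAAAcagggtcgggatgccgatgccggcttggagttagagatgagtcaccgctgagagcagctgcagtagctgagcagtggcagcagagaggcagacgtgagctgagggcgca

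IFIT3 held 2 matches and IFIT5 held 3, the latest of them beginning 4 bases before the start and running past it. SAMD9 and ISG20, on the other side, each held 1 match with the same letters, GAAACTGAAA. No match was found in these windows of HERC6 and IRF9, which says only that the letters are not there. Over both strands, 24 of the 36 windows of the set (66.7%) held at least 1 match, against 2.8% of the windows of 9352 genes above the filter and 3.65% of all 27305. Split by direction, the share was 9 of 13 windows (69.2%) for genes with an interval above a ratio of 1 and 8 of 11 (72.7%) for those with an interval below it. TTCNNNGAA, the gamma-activated site of type II interferon responses, was found in 12 of 36 windows (33.3%), against 6.28% above the filter, and its matches may overlap those of the other motif. IRF9 had 1 such match, TTCTGGGAA, 63 bases before its start. For genes with several starts the window listed earliest was used.

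IFIT proteins bind foreign RNA and keep it from being translated, and their genes sit side by side on chromosome 10. IFIT3 (ENSG00000119917, GRCh38 chromosome 10, 89327894 to 89340971), a partner that stabilizes IFIT1, had 223 counts with CBS against 108 with EV, or 10.5 CPM with CBS and 5.42 CPM with EV. Its log2 fold was 0.92 (0.61 to 1.29), just under the 2-fold line. IFIT5, which binds RNA ends that carry triphosphates, had 440 counts with CBS and 238 with EV, giving a log2 fold of 0.78 (0.56 to 1.02). All 4 genes of the family had an interval above a ratio of 1, and the family summed to 37.4 CPM with CBS against 19.9 with EV. IFIT1, which recognizes capped RNA that lacks the cell's own methylation, had 75 counts with CBS and 32 with EV, giving a log2 fold of 1.02 (0.52 to 1.78). IFIT2, which works in complex with the others, had 60 counts with CBS and 18 with EV, giving a log2 fold of 1.42 (0.86 to 2.49). Both of the called genes were thus the least counted of the family. LIPA, a gene on the opposite strand, covers 1.58% of the exon bases of IFIT2 and had 2382 counts with CBS and 1811 with EV. AL353751.1, on the same strand, covers 8.68% of them and had 1 count in each library. Whether reads of LIPA entered the count of IFIT2 was not tested. In each library IFIT5 and IFIT3 had the higher levels per length, at 7.63 and 6.34 TPM with CBS and 4.07 and 3.01 TPM with EV. Under every scaling, prior count, unit and trend removal tried the 4 log2 folds stayed positive, from 0.65 for IFIT5 to 1.59 for IFIT2. The call of IFIT1 ended on log2(TPM + 1) (difference 0.79), at a prior count of 20 and with the GC and length trend removed (0.93). That of IFIT2 ended on log2(TPM + 1) (0.75). The 1 added there draws such low levels toward 0. IFIT1 was at 2.59 TPM with CBS and 1.08 TPM with EV. IFIT2 was at 1.33 TPM with CBS and 0.39 TPM with EV, so without the added 1 both genes were more than 2-fold apart. Neither reached the filter of 100 counts, and no IFIT gene was called at 4-fold.

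OAS enzymes make short oligoadenylates that activate the nuclease RNase L. OAS3 (chromosome 12, 112938352 to 112973249), the largest of them, had 2070 counts with CBS against 1364 with EV, or 97.1 CPM with CBS and 68.5 CPM with EV, and a log2 fold of 0.50 (0.40 to 0.60). OAS1 had 94 counts with CBS and 64 with EV, and the interval of its log2 fold, 0.43, just held a ratio of 1 (-0.02 to 0.94). OAS2, at 18 counts in each library, and OASL, a relative without synthetase activity, at 12 counts with CBS and 10 with EV, lay below the filter. OAS3 thus had the highest level of the family per length, at 23.3 TPM with CBS and 14.8 TPM with EV. Among the RNA helicases, DDX60, a cofactor of RNA sensing, had 231 counts with CBS and 148 with EV, giving a log2 fold of 0.53 (0.24 to 0.85). IFIH1, the sensor also called MDA5, had 304 counts with CBS and 263 with EV, and its log2 fold, 0.11, did not leave a ratio of 1 (-0.13 to 0.35).

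The dynamin-like MX proteins trap incoming viruses and the guanylate-binding proteins coat the compartments of intracellular pathogens. GBP2 (chromosome 1, 89106132 to 89150456) had 21 counts with CBS against 75 with EV, which put its log2 fold at -1.71 (-2.71 to -1.22). Its neighbour GBP1 had 467 counts with CBS and 426 with EV, giving a log2 fold of 0.03 (-0.16 to 0.23). GBP3 had 587 counts with CBS and 617 with EV, giving a log2 fold of -0.17 (-0.34 to -0.00). On log2(TPM + 1) its difference was 0.15, where the median over all genes above the filter was 0.09. Only GBP2 of these genes was called, and it was at 0.58 TPM with CBS and 2.91 TPM with EV. The guanylate-binding genes are close relatives whose estimated counts were not whole, so reads may have been assigned to the wrong one of them. MX1, a standard marker of interferon response, had 28 counts with CBS and 24 with EV, and the interval of its log2 fold, 0.10, ran from -0.72 to 0.97. MX2 had 1 counts with CBS and 3 with EV, too few for a fold.

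ISG15 is a ubiquitin-like protein that is attached to other proteins by UBE2L6 and HERC5 and taken off by USP18. None of its genes was called, and their intervals lay on both sides of a ratio of 1. ISG15 (chromosome 1, 1001138 to 1014541) had 87 counts with CBS against 138 with EV, which put its log2 fold at -0.73 (-1.17 to -0.37). UBE2L6, the conjugating enzyme, had 892 counts with CBS and 971 with EV, giving a log2 fold of -0.22 (-0.35 to -0.09), or -0.06 on log2(TPM + 1). On the other side, USP18 (chromosome 22, 18149899 to 18177397), which also restrains signalling at the receptor chain IFNAR2, had 122 counts with CBS and 59 with EV, giving a log2 fold of 0.90 (0.49 to 1.42). The HERC ligases had log2 folds close to that of USP18. HERC6, a relative of HERC5 that acts as an ISG15 ligase in mice, had 266 counts with CBS and 130 with EV, giving a log2 fold of 0.91 (0.63 to 1.25). HERC5, the main ISG15 ligase of human cells, had 42 counts with CBS and 19 with EV, giving a log2 fold of 0.89 (0.23 to 1.91). The log2 folds of these 3 genes were alike and each just missed the 2-fold line. At a prior count of 1 the log2 fold of HERC5 was 1.01 and it was called higher. The ubiquitin ligases TRIM21, an antibody receptor of the cytosol, and TRIM22, a restriction factor, differed less, with log2 folds of 0.22 (0.03 to 0.41) and 0.18 (-0.03 to 0.40).

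The 4 transcription factors divided, with 3 intervals below a ratio of 1 and that of IRF1 above it. IRF9 (ENSG00000213928, chromosome 14, 24161053 to 24166565), the DNA-binding subunit of ISGF3, had 162 counts with CBS against 393 with EV, or 7.60 CPM with CBS and 19.7 CPM with EV. Its log2 fold was -1.35 (-1.65 to -1.11). A neighbouring gene model, AL136295.5, covers 48.4% of the exon bases of IRF9 on the same strand, and had 52 counts with CBS and 38 with EV. With both summed, the log2 fold was -1.09 (-1.35 to -0.87), still past the 2-fold line. STAT2, the ISGF3 subunit that activates transcription, had 391 counts with CBS and 492 with EV, giving a log2 fold of -0.42 (-0.62 to -0.24). IRF7, which drives transcription of interferon genes, had 177 counts with CBS and 239 with EV, giving a log2 fold of -0.52 (-0.82 to -0.24), or -0.21 once the trend with GC content and transcript length was taken out. IRF1, a factor induced by type II interferon, had 770 counts with CBS and 509 with EV, giving a log2 fold of 0.50 (0.34 to 0.66), and C5orf56, which covers 22% of its exon bases on the opposite strand, had 36 counts with CBS and 35 with EV.

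IFITM proteins sit in membranes and hinder the fusion of viruses with them. IFITM3 (chromosome 11, 319669 to 327537) was the most abundant gene of the set per length, at 507 TPM with CBS and 622 with EV, and stood at percentile 98.2 of the TPM levels of genes above the filter. It had 4577 counts with CBS and 5563 with EV, giving a log2 fold of -0.38 (-0.44 to -0.32). IFITM2 had 113 counts with CBS and 172 with EV, giving a log2 fold of -0.68 (-1.06 to -0.35), and IFITM1 had 17 counts with CBS and 36 with EV, giving a log2 fold of -0.98 (-2.11 to -0.31). The intervals of the 3 IFITM genes thus lay below a ratio of 1. Their sequences are alike, and IFITM1 and IFITM2 overlap in the annotation over 351 exon bases, so that their reads are hard to assign. Summed, IFITM1 and IFITM2 had 130 counts with CBS and 208 with EV, giving a log2 fold of -0.75 (-1.10 to -0.45). Alone, IFITM1 was at 1.73 TPM with CBS and 7.27 TPM with EV, a difference of -1.60 on log2(TPM + 1). BST2, also called tetherin, which holds budding virus at the cell surface, had 275 counts with CBS and 325 with EV, giving a log2 fold of -0.33 (-0.58 to -0.10), but its level was 30.7 TPM with CBS and 30.8 TPM with EV. PLSCR1, a phospholipid scramblase, went against the other membrane proteins, at 570 counts with CBS and 368 with EV, giving a log2 fold of 0.53 (0.34 to 0.73).

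The ADP-ribosyltransferase relatives PARP9 and PARP14 lie near each other on chromosome 3. PARP14 had 840 counts with CBS against 580 with EV and a log2 fold of 0.43 (0.28 to 0.59), and PARP9, which works with the ubiquitin ligase DTX3L, had 558 counts with CBS and 455 with EV, giving a log2 fold of 0.19 (0.02 to 0.38). On log2(TPM + 1), the log2 difference was 0.93 for PARP14 and 0.29 for PARP9. The gene DTX3L, on the opposite strand, covers 2.43% of the exon bases of PARP9 and had 1082 counts with CBS and 689 with EV. Whether reads of DTX3L entered the count of PARP9 was not tested. Among the IFI genes, IFI35, a partner of NMI, had 237 counts with CBS and 159 with EV, giving a log2 fold of 0.47 (0.18 to 0.78). IFI6, an inhibitor of cell death, had 110 counts with CBS and 149 with EV, giving a log2 fold of -0.52 (-0.90 to -0.17). IFI27, IFI44 and IFI44L, which interferon strongly induces in many cells, were nearly silent, with 9, 21 and 6 counts with CBS against 7, 17 and 2 with EV.

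SAMD9 (ENSG00000205413, chromosome 7, 93099513 to 93118023), a factor that restricts poxviruses and cell growth, had 520 counts with CBS against 1384 with EV, or 24.4 CPM with CBS and 69.5 CPM with EV. Its log2 fold of -1.50 (-1.66 to -1.36) was the lowest among genes of the set with at least 100 counts. SAMD9L, the paralog next to it, had 89 counts with CBS and 93 with EV, giving a log2 fold of -0.15 (-0.60 to 0.27), or 0.34 on log2(TPM + 1). ISG20, an exonuclease for single-stranded RNA, had 137 counts with CBS and 266 with EV, giving a log2 fold of -1.03 (-1.36 to -0.75). SAMD9 was called lower in each setting but the 4-fold threshold, and SAMD9L was not called. The call of ISG20 ended with library totals, in the authors' TPM (log2 difference -0.83), at a prior count of 20 and with the GC and length trend removed (-0.98). EPSTI1 had 53 counts with CBS and 32 with EV, giving a log2 fold of 0.56 (-0.03 to 1.31). XAF1, an antagonist of the caspase inhibitor XIAP, had 30 counts with CBS and 5 with EV and lay below the filter, with a log2 fold of 1.74 and an interval above a ratio of 1 (1.11 to 4.21). PRAL, a gene on the opposite strand, covers 38.3% of the exon bases of XAF1 and had 0 counts with CBS and 22 with EV, so that both together had 30 counts with CBS and 27 with EV, giving a log2 fold of 0.05 (-0.75 to 0.86). The sources used here do not give whether the counting used strand, and XAF1 was at 0.70 TPM with CBS and 0.56 TPM with EV. RSAD2, which encodes the antiviral enzyme viperin, and CMPK2, its neighbour, had no count in either library, which allows up to 0.141 CPM with CBS and 0.151 CPM with EV.

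**Figure D3:**
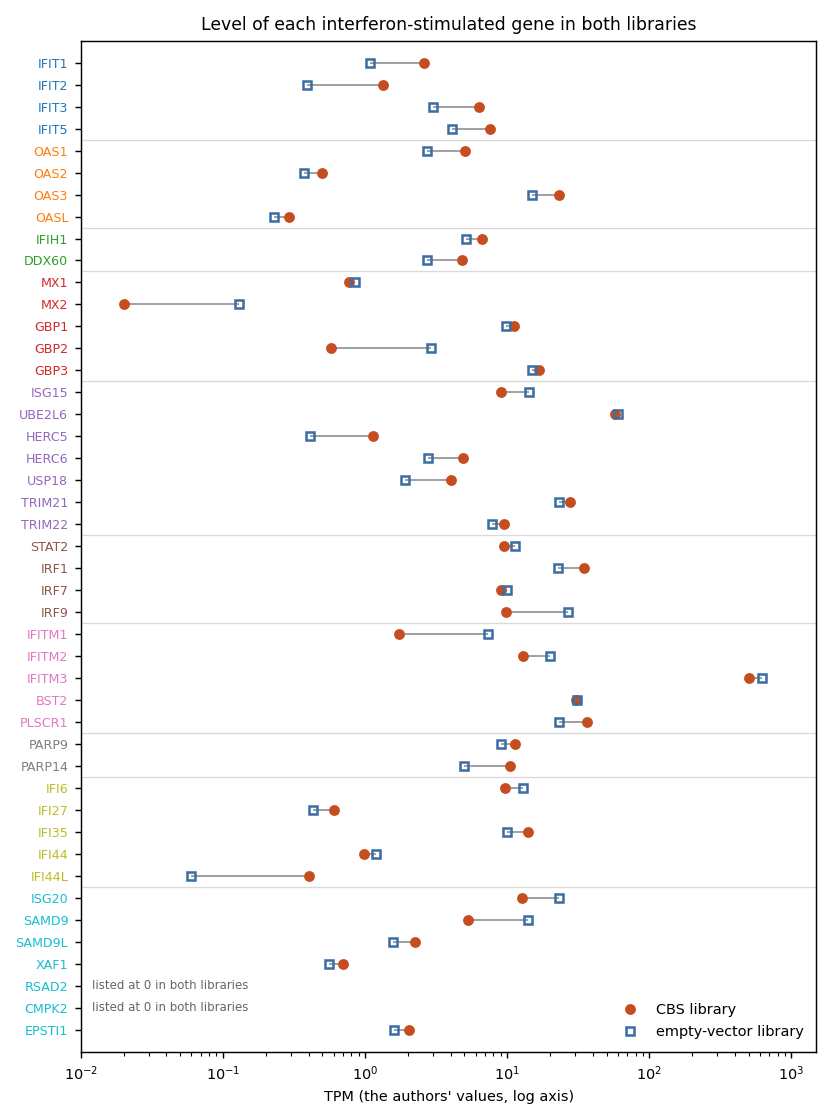
TPM of each gene on a log axis, with filled circles for the CBS library and open squares for the empty-vector library, in the same order of roles. Levels run from IFITM3 at 507 and 622 TPM to genes under 1 TPM, and RSAD2 and CMPK2 are listed at 0 in both libraries.

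The level of these genes was low to moderate in both libraries. Of the 45, 17 had a mean of the authors' TPM above 10, 17 lay between 1 and 10, and 11 were under 1. After IFITM3 came UBE2L6 at 57.7 TPM with CBS and 60.2 with EV, then BST2, PLSCR1 and IRF1. IFIT2, HERC5 and MX1, all under 2 TPM, were at or under percentile 3.34 of the genes above the filter.

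Genes of the set that lie beside each other were then compared by the ratio of their count ratios. Among 14 pairs of consecutive genes within 200 kb, the interval of that ratio excluded 1 in 2. The same share was not counted over neighbouring genes of the whole table, so this count has no background to be read against. GBP1 over GBP2 was at 3.91 (2.34 to 6.80) and SAMD9 over SAMD9L was at 0.393 (0.285 to 0.541), so the neighbours of both pairs differed from each other beyond counting error. Within the IFIT cluster the ratios were 1.61 (0.89 to 3.05) for IFIT2 over IFIT3, 0.88 (0.53 to 1.44) for IFIT3 over IFIT1 and 1.27 (0.80 to 2.04) for IFIT1 over IFIT5, each holding 1. HERC6 over HERC5 at 0.93 (0.49 to 1.70) and OAS1 over OAS3 at 0.97 (0.69 to 1.36) held 1 as well.

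Log2 folds were higher for transcripts of low GC content, in the set and over the whole table. The 19 genes of the set under 50% GC had a median log2 fold of 0.43, with 10 intervals above a ratio of 1 and 3 below. The 17 at 50% or more had a median of -0.38, with 5 intervals above and 11 below. Over all genes above the filter, 38.3% were above and 21.2% below at under 50% GC, and 23.3% were above and 43.8% below at 50% or more. Spearman's correlation of log2 fold with GC content was -0.39 across the 36 genes and -0.28 across 13225 genes of the table, all read from the same 2 libraries. With the trend of all genes on GC content and transcript length removed, the median of the 36 was 0.09, that of the low-GC genes 0.39 and that of the high-GC genes -0.21. After this removal IFIT3 was at 0.82, USP18 at 0.89, SAMD9 at -1.61, IRF9 at -1.28 and ISG20 at -0.98. Genes of high GC content that came closer to 0 were ISG15 at -0.43, IRF7 at -0.21, IFITM3 at -0.21 and UBE2L6 at -0.11.

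**Figure D4:**
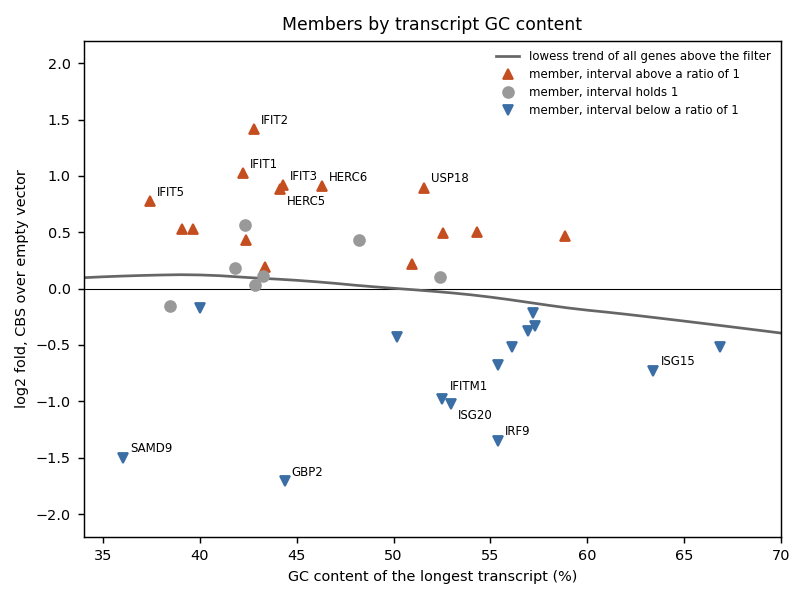
Log2 fold of the 36 genes above the filter (vertical axis) against the GC content of their longest transcript in percent (horizontal axis), with the lowess trend of all genes as a line. Triangles pointing up (interval above a ratio of 1) lie mostly under 50% GC and triangles pointing down mostly over it, with SAMD9 and GBP2 as low-GC genes far below the line.

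The rest of the interferon pathway was read from 8 lists written from general knowledge. Their intervals are to be read against 31.6% above and 31.1% below a ratio of 1 over all genes, and their calls against 1.41% higher and 5.28% lower. Of 21 type I and type III interferon genes, 20 had no count in either library, IFNB1 among them, and IFNE, an interferon of epithelia, had 11 counts with CBS against 16 with EV. IFNG, the type II interferon, had none. For 4 of 6 receptor genes the interval lay below a ratio of 1, for none above, and the median log2 fold was -0.27. IFNAR2, a chain of the type I receptor, had 132 counts with CBS and 203 with EV, giving a log2 fold of -0.70 (-1.05 to -0.40), while IFNAR1, the other chain, was at 0.03 (-0.10 to 0.15). No receptor reached a fold of 2. JAK1, at 1906 counts with CBS and 1639 with EV, was at 0.12 (0.02 to 0.22) and TYK2, at 1394 counts with CBS and 1687 with EV, was at -0.37 (-0.48 to -0.27), and of the 5 genes of the JAK-STAT list 1 interval lay above a ratio of 1 and 3 below.

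Genes of nucleic acid sensing centred on no difference, with a median log2 fold of -0.01 over 16 genes, 3 intervals above a ratio of 1 and 5 below. TLR4, which was in this list but is a receptor for bacterial lipopolysaccharide rather than for nucleic acid, was called higher. It had 112 counts with CBS and 31 with EV, giving a log2 fold of 1.61 (1.17 to 2.38). IRF5, a factor downstream of such receptors, was called lower, at 42 counts with CBS and 103 with EV, giving a log2 fold of -1.29 (-1.95 to -0.86). No other gene of the sensing list was called. Of 8 measured genes that restrain the pathway, SOCS3, a feedback inhibitor of JAK signalling, was called lower, at 132 counts with CBS and 258 with EV, giving a log2 fold of -1.04 (-1.38 to -0.76), and the median was 0.02. Other antiviral genes induced by interferon had a median of 0.05 over 27 genes, with 11 intervals above a ratio of 1, 5 below and no gene called in either direction. Antigen processing genes had a median of 0.14 over 18, with 9 intervals above and 6 below. NLRC5, which activates class I antigen presentation genes, was called higher at 128 counts with CBS and 39 with EV, giving a log2 fold of 1.51 (1.09 to 2.17), and HLA-F, a class I relative, was called lower at 98 counts with CBS and 209 with EV, giving a log2 fold of -1.15 (-1.55 to -0.84). Close similarity among HLA genes leaves the assignment of their reads uncertain.

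**Figure D5:**
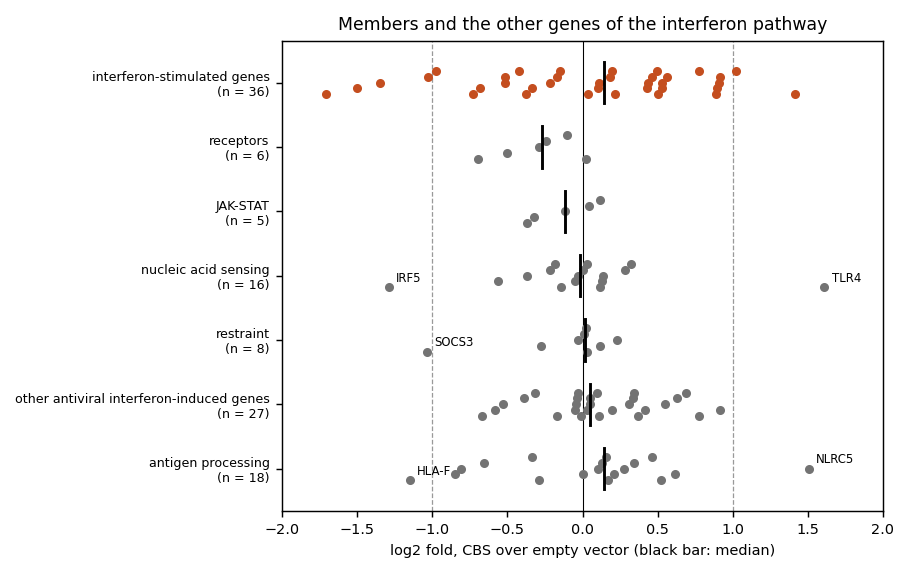
Log2 folds, CBS over empty vector, of the interferon-stimulated genes and of 6 other lists of the pathway, each point a gene above the filter and each black bar a median, with the 2-fold lines dashed. The medians lie between -0.27 (receptors) and 0.15 (interferon-stimulated genes), and the points past a dashed line outside the set are TLR4, IRF5, SOCS3, NLRC5 and HLA-F.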

How the data were processed

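RNA sequencing of 2 libraries was analysed, 1 per group, grouped by the genotype in the labels. The submitters' processing notes name Trimmomatic 0.39, STAR 2.6.1d, RSEM 1.3.2 and GRCh38, without roles or order. Strandedness, read layout and annotation are not given in the sources used here. Deposited values are the authors' expected counts, which need not be whole (15.5% and 15.8% of genes in the CBS and empty-vector libraries were not), and TPM. Counts were rounded to whole numbers. For 15 of the 45 genes a deposited count was not whole.

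TMM factors came from edgeR 4.0.16 and size factors from DESeq2 1.42.0 (R 4.3.3), with no model fitted. Intervals are Clopper-Pearson intervals of the conditional binomial. PCR-amplified reads are not independent molecules, so they may be too narrow. TPM was compared as log2(TPM + 1), with calls on the fold alone. On that scale the median over all genes above the filter was 0.09, against 0.00 after TMM scaling. Differences of single genes on log2(TPM + 1) include this offset. The longest GENCODE 29 transcript gave GC content and length, for 99.4% of genes above the filter, and their lowess trends (span 0.3) were removed in turn. Motifs were searched as text, and exon overlaps came from GENCODE 29. Fold and interval calculations were tested on simulated counts. Python 3.11.15, numpy 2.4.6, pandas 2.3.3, scipy 1.17.1, statsmodels 0.14.6 and matplotlib 3.10.9 were used.

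The 45 genes, their roles, the pathway lists and the naming rule were chosen with earlier results of these data known. The rule names each of the 45, pathway genes called with at least 50 counts, and 6 further genes whatever their values, of which IFNB1, IFNAR1, IFNAR2, JAK1 and TYK2 are given and 1 is not reported here. Pathway members under other symbols were matched by gene ID. Alternatives were DESeq2 size factors, library totals, TPM, prior counts of 1 and 20, thresholds of 1.5-fold and 4-fold, a filter of 100 counts or none, and removal of the GC and length trend.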

Additional observations from a re-analysis of the deposited data

How the results depend on the processing

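No paired analysis was possible because each group held 1 library, and for the same reason no library could be left out. The median log2 fold of the interferon-stimulated genes that passed each setting's filter (27 to 43 genes) stayed positive under each alternative, from 0.09 with the GC and length trend removed to 0.25 in the authors' TPM, where the median of all genes was also higher at 0.09. The count of genes called higher rested on few counts and on the threshold. It was 2 as reported and 0 on log2(TPM + 1), where the added 1 draws low levels toward 0. It was 0 with at least 100 counts, 1 at a prior count of 20, 1 with the trend removed, 7 at 1.5-fold and 0 at 4-fold. At a prior count of 1 it was 3, with HERC5 added, and without the filter 3, with XAF1 added. The count called lower was 4 as reported, 7 at 1.5-fold and 0 at 4-fold. It was also 4 in TPM, where IFITM1 took the place of ISG20, and 5 at a prior count of 1, where IFITM1 was added. With library totals, a prior count of 20, at least 100 counts or the trend removed it was 3. GBP2, IRF9 and SAMD9 were called lower in each setting but the 4-fold one and, for GBP2, the filter of 100 counts. Over the whole table, 188 genes higher became 121 at a prior count of 20, 431 without the filter, 115 with at least 100 counts, 934 at 1.5-fold and 23 at 4-fold. The 703 lower became 377 in TPM, 1281 without the filter, 438 with at least 100 counts, 1712 at 1.5-fold and 105 at 4-fold. Lower genes made up 78.9% of calls as reported, 64.7% at 1.5-fold and 70.5% to 82.0% under the other alternatives. All 15 genes with an interval above a ratio of 1 kept their sign under each scaling, unit and prior count, and 13 of the 14 with an interval below it did, GBP3 being the exception. After the data were seen, counts of overlapping genes were summed, which moved XAF1 to 0.05 and IRF9 to -1.09. The cause of these shifts was not tested, beyond the fewer genes, looser thresholds or added constants that the settings themselves bring. Few counts limit the genes below the filter, whose intervals are wide.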
